A study of Rattus norvegicus with 20 samples.

Results

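The genes described here make fatty acids from citrate in the liver cell, or make and remove malonyl-CoA on the way. They are 9 of the 14217 genes named on the array, namely Slc25a1, Acly, Acss2, Acaca, Acacb, Fasn, Me1, Thrsp and Mlycd. Each was taken by its current rat gene symbol, through the probe sets annotated to that gene alone. These were 14 of the 31039 probe sets tested. A gene is represented by the probe set with the highest mean signal over all arrays, and the others served as a check.

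Liver mRNA of 20 male Sprague-Dawley rats was measured on Affymetrix arrays, 1 rat per array. The rats were 4 weeks old when obtained and ate 1 of 4 diets for 21 days, each with 20% protein and 15% fat. The CS diet held casein and soybean oil, the CF diet casein and fish oil, the TS diet tofu and soybean oil, and the TF diet tofu and fish oil, with 5 rats per group. In the CF and TF diets, 50 g/kg of fish oil stood in for soybean-derived fat. The tofu was freeze-dried, and the tofu diets still held some casein. By the authors' list of ingredients, the tofu diets also held less sucrose and less energy per kg than the casein diets. The comparison of tofu with casein includes these differences. Rats with the highest and the lowest food consumption had been left out before the arrays were run, so the spread between rats may be narrower than in the whole cohort. Signals are given as z, each array's log signal standardised to that array's own distribution, and only differences between rats at the same probe set are compared.

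Citrate leaves the mitochondrion through the carrier Slc25a1 and is split to acetyl-CoA by Acly, while Acss2 makes acetyl-CoA from acetate. Acetyl-CoA carboxylase turns acetyl-CoA into malonyl-CoA, in the cytosol as Acaca and at the mitochondrial surface as Acacb. Malonyl-CoA is the chain-building unit for fatty acid synthase, Fasn, which uses NADPH such as that made by malic enzyme, Me1, and it also blocks entry of fatty acids into mitochondria until malonyl-CoA decarboxylase, Mlycd, removes it. Thrsp, also called Spot 14, is a small nuclear protein that rises with lipogenesis in liver.

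Most of these genes were lower on tofu than on casein, and none passed the threshold for the oil. Of the 9 genes, 6 fell on tofu and 0 rose at an adjusted p under 0.05 in limma, where 0.258% of all probe sets tested fell and 0.3% rose. The 6 were Fasn, Me1, Acly, Thrsp, Acaca and Acacb. For Slc25a1, Acss2 and Mlycd the differences were -0.13, -0.07 and -0.01 in z and did not pass. The count of 6 depended on the rats and settings used. It was 4 to 5 in the 20 fits that each left out a rat. In 8 other settings it ran from 3 to 7. Fasn, Acly, Acaca and Me1 kept their call in all 20 fits, Thrsp in 5 and Acacb in 4. The median difference of the 9 genes between tofu and casein was -0.32 in z, against 0.01 over all probe sets. For the oil, 0 of the 9 genes passed in limma, with 0.193% of all probe sets called in either direction. At the looser unadjusted p under 0.05 in limma, to which that share does not apply, 4 of the 9 passed. The share of all probe sets at this looser threshold is not given here, so the count has no background beside it. Unmoderated variances also gave 0 oil calls among the 9. The whole set is plotted by rat and then as differences.

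**Figure D1:**
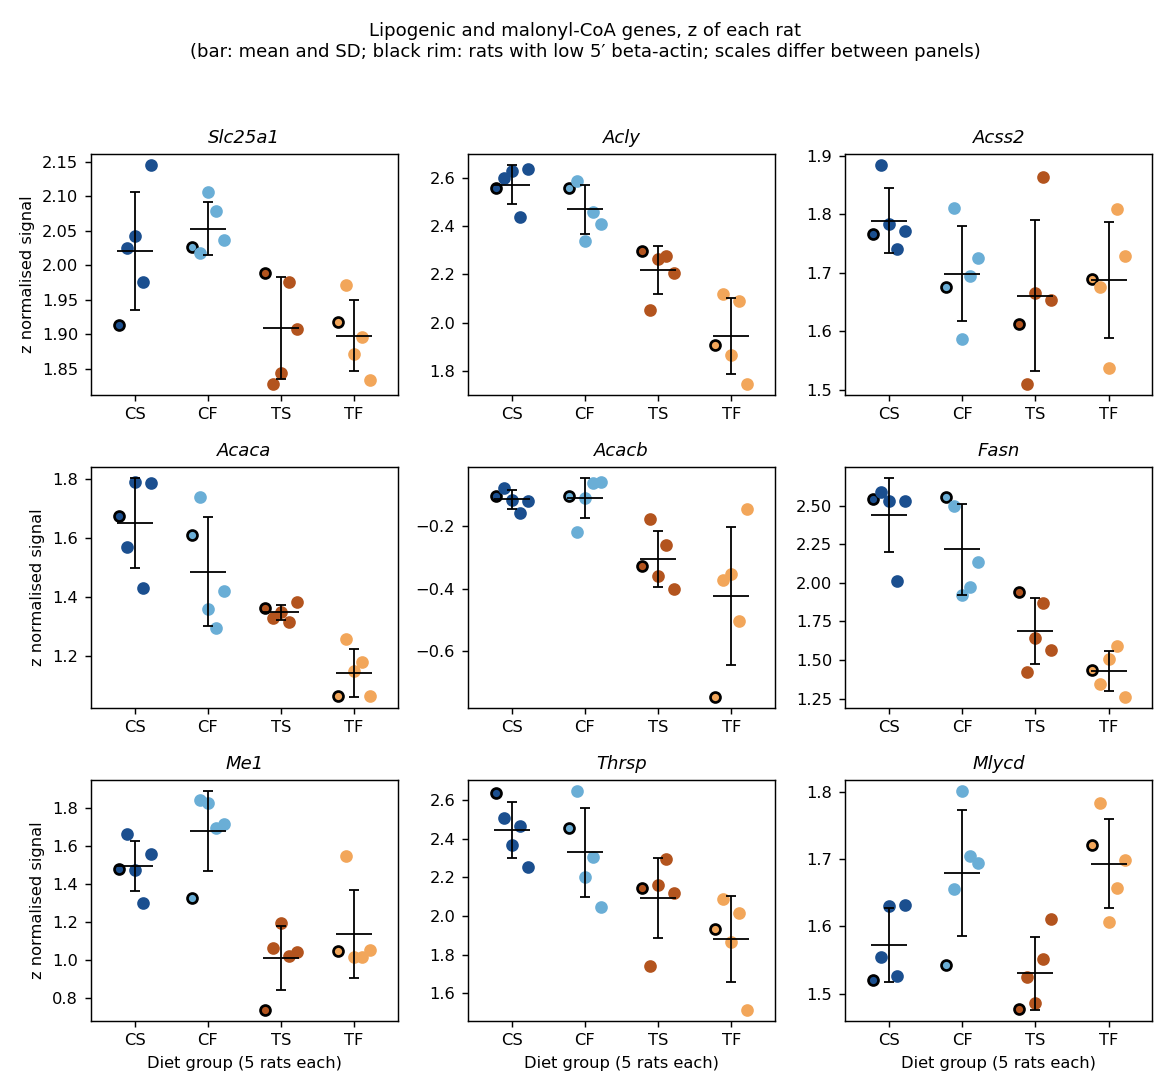
Each point is the z normalised signal of 1 rat at the representative probe set of 1 gene, in the CS, CF, TS and TF groups of 5 rats, with bars for the group mean and SD and black rims for 4 rats whose 5′ beta-actin signal was low. In the Acly panel every tofu rat lies below every casein rat, and in the Mlycd panel the fish oil groups average 1.68 and 1.69 against 1.57 and 1.53 in the soybean oil groups.

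**Figure D2:**
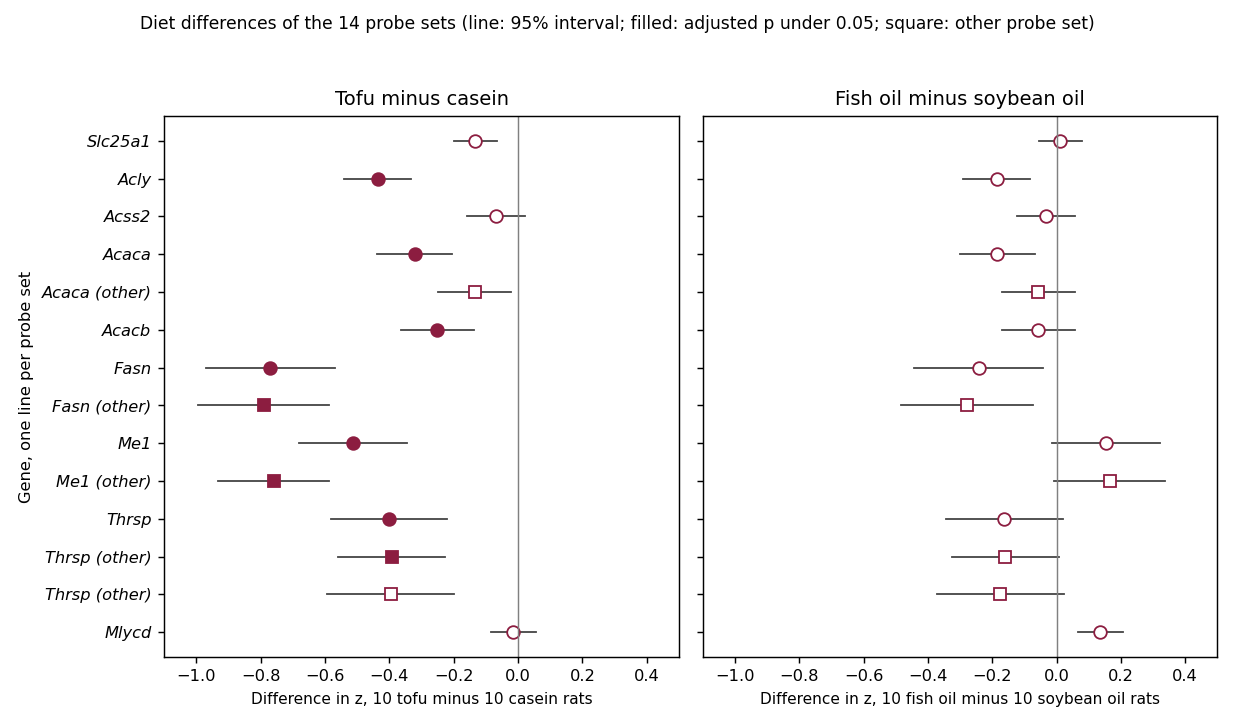
Points give the difference in z between 10 tofu and 10 casein rats (left) and between 10 fish oil and 10 soybean oil rats (right) for the 14 probe sets, with 95% intervals, filled where the adjusted p was under 0.05 and square for probe sets other than the representative one. All 14 points on the left are below 0, from -0.79 to -0.01, and no point on the right is filled.

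The sequences upstream of 4 genes are printed. Of these, 3, Acly, Acacb and Thrsp, were called lower on tofu, while Mlycd, which removes malonyl-CoA, did not pass. Me1 was also called lower, but holds no copy of the motif marked below and is not printed. Slc25a1 and Acss2, which did not pass, hold that motif and are not printed either. The sequences are the 250 bases before the gene's start in RefSeq on the build GRCr8, written 5′ to 3′ on the gene's own strand. Acly lies at chr10:85963632-85963881, minus strand, Acacb at chr12:48138215-48138464, minus strand, Thrsp at chr1:161138965-161139214, minus strand, and Mlycd at chr19:64356332-64356581, plus strand. The capitals mark the CCAAT box, the letters CCAAT or, read on the other strand, ATTGG.
Acly: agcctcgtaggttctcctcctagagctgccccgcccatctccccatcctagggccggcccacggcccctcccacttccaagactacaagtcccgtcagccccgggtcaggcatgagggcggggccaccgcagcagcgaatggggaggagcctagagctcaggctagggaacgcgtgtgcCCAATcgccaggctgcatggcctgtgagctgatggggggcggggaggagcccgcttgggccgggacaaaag
Acacb: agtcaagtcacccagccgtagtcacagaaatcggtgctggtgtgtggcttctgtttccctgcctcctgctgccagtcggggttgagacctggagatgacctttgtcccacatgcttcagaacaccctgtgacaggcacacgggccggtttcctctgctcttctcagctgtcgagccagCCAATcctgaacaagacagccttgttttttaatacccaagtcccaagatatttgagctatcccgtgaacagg
Thrsp: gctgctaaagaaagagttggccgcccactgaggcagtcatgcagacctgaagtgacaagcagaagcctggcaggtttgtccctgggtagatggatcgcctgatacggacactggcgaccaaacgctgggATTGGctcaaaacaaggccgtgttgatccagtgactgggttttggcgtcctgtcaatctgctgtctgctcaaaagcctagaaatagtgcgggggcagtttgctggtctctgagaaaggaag
Mlycd: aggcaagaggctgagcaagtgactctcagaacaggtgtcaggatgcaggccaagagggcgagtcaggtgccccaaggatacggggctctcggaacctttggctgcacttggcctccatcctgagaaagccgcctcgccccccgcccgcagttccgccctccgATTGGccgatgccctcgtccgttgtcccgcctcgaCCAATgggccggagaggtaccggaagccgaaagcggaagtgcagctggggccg

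Promoter sequences of 7 of the 9 genes were at hand, and Fasn and Acaca are named only. A CCAAT box on either strand was in 6 of these 7, all but Me1, against 34.0% of 33469 rat promoters of the same length. In Acly and Acacb the box begins 71 and 72 bases before the start, on the forward strand, and in Thrsp it begins 121 bases before it, on the reverse strand. Slc25a1 and Acss2 hold 1 box each and Mlycd holds 2, and none of these genes passed on tofu. Me1, which did pass, holds 0. The box is thus found in genes that passed and in genes that did not. The GC box GGGCGG, searched on both strands, was in 6 of 7, all but Acacb, against 30.5% of promoters, with 5 copies in Me1. An E-box, CANNTG, was in Acacb, Acss2 and Mlycd, 3 of 7, against 65.5%. Its palindromic form CACGTG, which is contained in the E-box, was in 0 of 7, against 5.59%. The core TCACNCCAC of a sterol response element was also in 0 of 7, against 0.974% of promoters. The TATA box TATAAA was in 0 of 7, against 12.9%, and the nuclear receptor half-site AGGTCA, on either strand, in 1 of 7, Acacb, against 14.1%. These are matches of letters in a short window and say nothing about binding.

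Citrate export and acetyl-CoA came first in the route. Acly, ATP-citrate lyase, which splits citrate in the cytosol, was the gene with no overlap between the proteins. Its z in the casein rats was 2.56, 2.60, 2.63, 2.44 and 2.64 in CS and 2.56, 2.58, 2.34, 2.46 and 2.41 in CF. On tofu it was 2.30, 2.05, 2.26, 2.28 and 2.21 in TS and 1.91, 2.12, 1.87, 2.09 and 1.75 in TF. The highest tofu rat, TS-1, stood below the lowest casein rat, CF-5. Acly was the 1 gene of the 9 whose 10 tofu rats all lay below its 10 casein rats at the representative probe set, which held for 0.0451% of all probe sets. Acly was 2.11-fold lower on tofu, a difference of -0.44 ± 0.05 in z (SE, 95% interval -0.54 to -0.33, adjusted p = 0.000161 in limma). The order of the group means was CS, CF, TS, TF, at 2.57, 2.47, 2.22 and 1.95.

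Slc25a1, the mitochondrial citrate carrier, differed by far less. Its z ran from 1.91 to 2.14 in CS and from 2.02 to 2.11 in CF, and from 1.83 to 1.99 in TS and 1.83 to 1.97 in TF, with medians of 2.03, 2.04, 1.91 and 1.90. The casein and tofu ranges overlapped, although every tofu rat lay below the casein mean. The difference was -0.13 ± 0.03 in z (SE, 95% interval -0.20 to -0.07, adjusted p = 0.0720 in limma). It passed in 5 of 8 other settings, with an adjusted p between 0.0218 and 0.2223 over all 8, and without rat CS-1 (adjusted p = 0.0408).

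Acss2, acetyl-CoA synthetase of the cytosol, did not separate the diets. Its z ran from 1.74 to 1.88 in CS, 1.59 to 1.81 in CF, 1.51 to 1.86 in TS and 1.54 to 1.81 in TF. All 4 groups overlapped. The difference between tofu and casein was -0.07 ± 0.04 in z (SE, adjusted p = 0.626 in limma), with a 95% interval from -0.16 to 0.02 that leaves room for a fall of 1.31-fold.

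Malonyl-CoA is made by the carboxylases. Acaca, the cytosolic form, gave 1.68, 1.57, 1.79, 1.43 and 1.79 in CS and 1.61, 1.74, 1.36, 1.30 and 1.42 in CF. In TS it gave 1.36, 1.33, 1.35, 1.32 and 1.38, and in TF 1.07, 1.26, 1.15, 1.18 and 1.07. The CF rats fell apart into 2 high and 3 low values, and the low ones overlapped TS, while every TF rat lay below every TS rat. Acaca was 1.74-fold lower on tofu, a difference of -0.32 ± 0.06 in z (SE, adjusted p = 0.00842 in limma). With the arrays low in 5′ beta-actin (TF-3, TS-1, CF-1 and CS-1) left out, the difference was -0.29 in z with an adjusted p of 0.0885. The other probe set of Acaca, whose group means of -0.56 to -0.30 in z lie below every array median, differed by -0.13 (adjusted p = 0.388). The 2 probe sets thus disagree on the call while sharing the sign.

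Acacb, the carboxylase at the mitochondrial surface, had a low signal. Its group means of -0.42 to -0.11 in z lie below every array median, and no fold is given for it. Its z was -0.11, -0.08, -0.12, -0.16 and -0.12 in CS and -0.10, -0.22, -0.11, -0.06 and -0.06 in CF. In TS it was -0.33, -0.18, -0.36, -0.26 and -0.40, and in TF -0.75, -0.37, -0.35, -0.50 and -0.15. The casein rats lay close together, and the TF rats spread over most of the range, with TF-3 lowest and TF-7 inside the casein values. The difference was -0.25 ± 0.05 in z (SE, adjusted p = 0.0390 in limma). It kept an adjusted p under 0.05 in 4 of the 20 fits that each left out 1 rat, those without TF-7, TF-3, TS-2 or CF-2, and the adjusted p of the 20 fits ran from 0.0073 to 0.0850. Without the 4 low beta-actin rats, of which TF-3 is 1, the difference was -0.21 (adjusted p = 0.116), and without the 3 arrays least correlated with the others it was -0.26 (adjusted p = 0.110).

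Fasn, fatty acid synthase, joins malonyl-CoA units to palmitate and moved most among the 9 at the representative probe sets. Its z was 2.54, 2.59, 2.53, 2.01 and 2.53 in CS and 2.55, 2.50, 1.92, 1.97 and 2.14 in CF. On tofu it was 1.94, 1.43, 1.64, 1.87 and 1.57 in TS and 1.43, 1.34, 1.51, 1.59 and 1.26 in TF. Rat CS-6 sat apart from the other CS rats, and CF again split into a high pair, CF-1 and CF-2, and 3 lower rats, of which CF-5 lay below the highest TS rat. Fasn was 3.76-fold lower on tofu, a difference of -0.77 ± 0.10 in z (SE, 95% interval -0.97 to -0.57, adjusted p = 0.0004 in limma). The other probe set differed by -0.79 and there the ranges of casein and tofu did not overlap.

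NADPH for the synthase comes in part from Me1, the cytosolic malic enzyme. Its z was 1.48, 1.66, 1.47, 1.30 and 1.56 in CS and 1.32, 1.84, 1.82, 1.69 and 1.71 in CF. In TS it was 0.74, 1.06, 1.20, 1.02 and 1.04, and in TF 1.05, 1.55, 1.01, 1.02 and 1.05. All TS rats lay below all casein rats, and in TF 1 rat, TF-4, stood within the casein range. Me1 was 2.41-fold lower on tofu, a difference of -0.51 ± 0.08 in z (SE, adjusted p = 0.00422 in limma). The other probe set gave -0.76, or 3.68-fold. Unlike Fasn, Acly and Acaca, Me1 was higher on fish oil on both proteins in its group means, 1.68 against 1.49 on casein and 1.13 against 1.01 on tofu. That oil difference, 0.15 ± 0.08 in z (SE, 95% interval -0.01 to 0.32), had an adjusted p of 0.923 in limma.

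Thrsp, the lipogenesis-associated nuclear protein, gave 2.63, 2.51, 2.37, 2.46 and 2.26 in CS and 2.45, 2.65, 2.20, 2.31 and 2.05 in CF. Its z on tofu was 2.14, 1.74, 2.16, 2.30 and 2.12 in TS and 1.93, 2.09, 1.87, 2.01 and 1.52 in TF. The casein and tofu rats overlapped between 2.05 and 2.30. Thrsp was 1.99-fold lower on tofu, a difference of -0.40 ± 0.09 in z (SE, adjusted p = 0.0390 in limma). The other 2 probe sets gave -0.39 (adjusted p = 0.0256) and -0.40 (adjusted p = 0.0684). The representative one kept its call in 5 of the 20 fits that left out 1 rat, those without TF-4, TS-5, CF-7, CF-5 or CS-7, with adjusted p from 0.0242 to 0.0789. Without the 4 low beta-actin rats it stood at -0.37 (adjusted p = 0.188), and without the 3 least correlated arrays at -0.43 (adjusted p = 0.0974).

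Mlycd, malonyl-CoA decarboxylase, takes malonyl-CoA away and was not called for the protein. Its z was 1.52, 1.56, 1.63, 1.53 and 1.63 in CS and 1.54, 1.66, 1.80, 1.71 and 1.69 in CF. On tofu it was 1.48, 1.52, 1.49, 1.55 and 1.61 in TS and 1.72, 1.78, 1.61, 1.66 and 1.70 in TF. The soybean oil rats topped out at 1.63, and 8 of the 10 fish oil rats lay above that value. The protein difference was -0.01 ± 0.03 in z (SE, adjusted p = 0.927 in limma), with a 95% interval from -0.08 to 0.06, or changes of at most 1.16-fold down and 1.10-fold up. The oil difference was 0.14 ± 0.03 in z (SE, 95% interval 0.07 to 0.21, unadjusted p = 0.000703) and did not pass over all probe sets (adjusted p = 0.211 in limma), with adjusted p from 0.0636 to 0.4046 in the fits that left out 1 rat. It was positive on both proteins, 0.11 between CF and CS and 0.16 between TF and TS.

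The number of genes called depended on the arrays included. With the 4 arrays low in 5′ beta-actin left out, the calls were Fasn, Acly and Me1, 3 of 9. Without the 3 least correlated arrays, TS-7, TF-4 and TF-5, the calls were Fasn, Acly, Acaca and Me1. With unmoderated variances Acacb and Thrsp were not called and Slc25a1 was. Fasn, Acly, Acaca and Me1 were called in each of the 20 fits that left out 1 rat, and every such fit called 4 or 5 genes in all. The sign of the protein difference stayed negative for all 9 genes in each other setting that gave a value, and in the 20 fits for all but Mlycd, which ran from -0.03 to 0.00.

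Fish oil gave lower values than soybean oil for 6 of the 9 genes, with a median difference of -0.06 in z against -0.001 over all probe sets. Fasn differed by -0.24 ± 0.10 (SE, 95% interval -0.44 to -0.04) and Acly by -0.19 ± 0.05 (SE, 95% interval -0.29 to -0.08). Acaca differed by -0.18 ± 0.06 (SE, 95% interval -0.30 to -0.07). For these 3 genes the intervals lie below 0, but the adjusted p in limma were 0.754, 0.317 and 0.476. Thrsp differed by -0.16, Acacb by -0.06, Acss2 by -0.03 and Slc25a1 by 0.01 for the oil, each with a 95% interval that holds 0. On tofu, every TF rat had lower Acaca than every TS rat, the 1 gene of the 9 with no overlap between the 2 oils on either protein, which held between TF and TS for 0.606% of all probe sets. In the interaction test, which asks whether the oil difference depends on the protein, 0 of the 9 genes passed in limma, 0 had an unadjusted p under 0.05 at their representative probe sets and 0% of all probe sets were called. The largest interaction by size, that of Acly, was -0.17 with a 95% interval from -0.38 to 0.04, so an oil effect on tofu up to 0.38 lower than on casein remains within the error. For the other 8 genes it lay between -0.12 and 0.12, with 95% intervals that hold 0.

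Group by group, the 4 diets were ordered CS, CF, TS, TF for Fasn, Acly, Acaca and Thrsp, and CF, CS, TF, TS for Me1. Comparisons that share a group of rats are given here side by side only. Between TS and CS, 1 of the 9 genes passed, Fasn at -0.75 in z (0.029% of probe sets called lower). Between TF and CF, 2 passed, Fasn at -0.79 and Acly at -0.52 (0.0451% called lower). Neither oil comparison within a protein gave a call among the 9 genes in limma. There 0.0451% (CF and CS) and 0.0677% (TF and TS) of probe sets were called in either direction. At the looser unadjusted p under 0.05 in limma, to which those shares do not apply, 2 of 9 genes passed between CF and CS and 3 of 9 between TF and TS. Shares of all probe sets at this looser threshold are not given here. From the first to the last diet in the order, TF against CS, 4 passed, namely Fasn at -1.01 or 5.69-fold, Acly at -0.62 or 2.91-fold, Thrsp at -0.56 and Acaca at -0.51 (0.171% called lower). Me1 passed between TS and CF, its own extremes, at -0.67 or 3.14-fold (0.122% called lower). These calls are those of the representative probe sets. The other probe set of Me1 passed between TS and CS as well, at -0.77 (adjusted p = 0.00857 in limma). It also passed between TF and CF at -0.75 (adjusted p = 0.0129) and between TF and CS at -0.59 (adjusted p = 0.0239). Neighbours in the order of Fasn therefore did not differ at the adjusted threshold, CF against CS at -0.22, TS against CF at -0.53 (adjusted p = 0.191 in limma) and TF against TS at -0.26, and the calls lie between groups further apart.

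Mlycd and Acaca act on malonyl-CoA in opposite directions, and the gap between their mRNA signals, relative to CS, was widest in TF. The z of Mlycd minus that of Acaca, set to 0 at the mean of CS, was 0.27 ± 0.25 in CF, 0.26 ± 0.05 in TS and 0.63 ± 0.09 in TF (SD, n = 5), with an SD of 0.11 in CS. Every TF rat, from 0.53 to 0.73, lay above every other rat, the next being a CF rat at 0.52. How many other gene pairs set TF apart in this way was not counted. Between TF and CS, Acaca alone differed by -0.51 and Mlycd alone by 0.12, so most of the gap in TF is that of Acaca. Against Acacb in place of Acaca the values were 0.10 ± 0.10 in CF, 0.15 ± 0.11 in TS and 0.43 ± 0.24 in TF, and here the groups overlapped. No test was made of these differences, which describe mRNA and not the level of malonyl-CoA.

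Inside the diet groups, rats with more Acly mRNA also had more Fasn, Acaca and Thrsp mRNA. Over 20 rats with the group means removed, Acly correlated with Fasn at Pearson's r = 0.70 (permutation p = 0.0005, adjusted p = 0.0133) and Spearman's rho = 0.71 (permutation p = 0.00083, adjusted p = 0.0279). With Acaca, r was 0.66 (permutation p = 0.00074, adjusted p = 0.0133) and rho 0.69 (permutation p = 0.00155, adjusted p = 0.0279). With Thrsp, r was 0.72 (permutation p = 0.00167, adjusted p = 0.0200) and rho 0.71 (permutation p = 0.00289, adjusted p = 0.0347). These 3 were the pairs under 0.05 among 36 pairs tested, adjusted over the 36. Of all pairs 24 were positive and 12 negative, with a median r of 0.14.

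**Figure D3:**
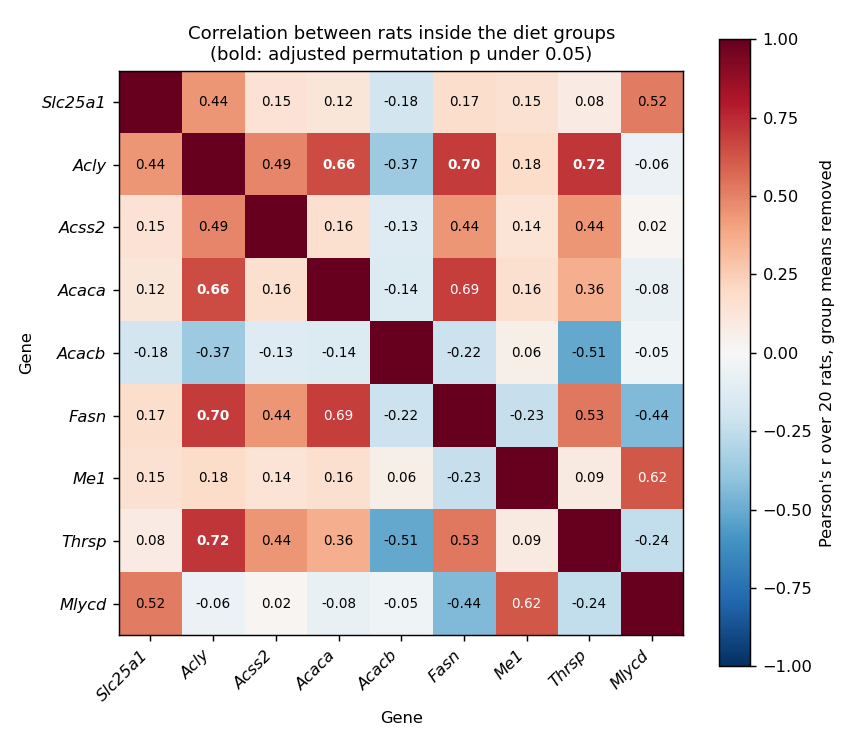
Colours and numbers give Pearson's r between each pair of the 9 genes over 20 rats after removal of the group means, on a scale from -1 to 1, in bold where the adjusted permutation p was under 0.05. The bold cells are those of Acly with Fasn, Acaca and Thrsp at 0.70, 0.66 and 0.72, while Acacb is negative with 7 of the other 8 genes.

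Without the 2 rats farthest from the median of the gene named first in the pair, r was 0.61 for Fasn and Acly, 0.72 for Acly and Acaca and 0.54 for Acly and Thrsp, and no pair remained under 0.05 after adjustment. Among the 10 casein rats alone, r was 0.90 for Fasn and Acly, 0.85 for Acly and Acaca and 0.43 for Acly and Thrsp. Among the 10 tofu rats it was 0.59, 0.71 and 0.91. In the 20 analyses that each left out 1 rat, r ran from 0.65 to 0.82 for Fasn and Acly, from 0.60 to 0.71 for Acly and Acaca and from 0.63 to 0.80 for Acly and Thrsp. Without CS-6, low in Fasn, Acly and Acaca, r was 0.65 for Fasn and Acly and 0.60 for Acly and Acaca, both with an adjusted permutation p of 0.0671. Acly and Thrsp had an adjusted permutation p over 0.05 without CF-2 (0.0582), TS-2 (0.0857), TF-4 (0.0509) or TF-7 (0.0811), and with the rat number as a block (0.0667). Fasn and Acaca reached r = 0.69, with a permutation p of 0.00868 (adjusted p = 0.0781) and rho = 0.60 (permutation p = 0.0154, adjusted p = 0.111), and r was 0.86 in the casein rats and 0.08 in the tofu rats.

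Me1, Acacb, Slc25a1, Acss2 and Mlycd were in none of the 3 pairs under 0.05, all of which hold Acly. Fasn with Thrsp, at r = 0.53 (adjusted permutation p = 0.148), and Acaca with Thrsp, at r = 0.36 (adjusted permutation p = 0.400), did not pass either. Me1 had r = -0.23 with Fasn, 0.18 with Acly and 0.16 with Acaca, although it fell with them on tofu. Its highest r was with Mlycd, at 0.62 (permutation p = 0.0126, adjusted p = 0.0830) and rho 0.53 (permutation p = 0.0245, adjusted p = 0.126), and it dropped to 0.38 without CF-1 and TF-4. Acacb had r = -0.51 with Thrsp (permutation p = 0.0466, adjusted p = 0.187) and rho = -0.40 (permutation p = 0.128, adjusted p = 0.418). For Mlycd and Slc25a1 r was 0.52 (permutation p = 0.0138, adjusted p = 0.0830) and rho 0.55 (permutation p = 0.0207, adjusted p = 0.124). For Mlycd and Fasn both r and rho were -0.44 (permutation p = 0.101 and 0.0811, adjusted p = 0.279 and 0.324).

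**Figure D4:**
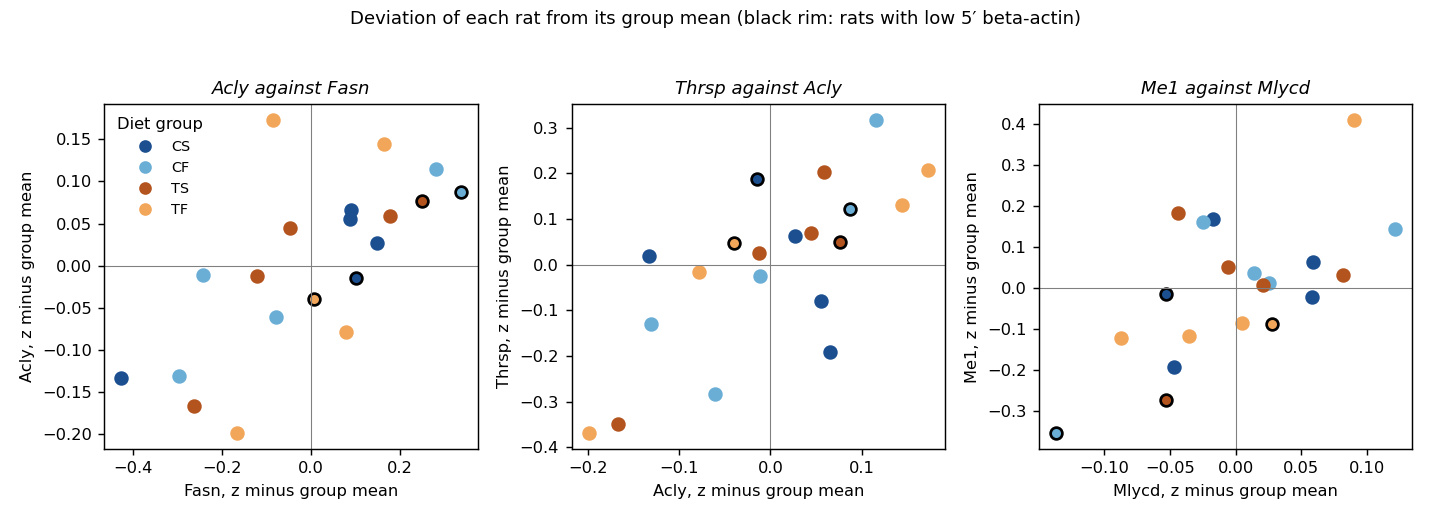
Each point is 1 rat, placed by its z minus the mean of its diet group for Fasn and Acly, Acly and Thrsp, and Mlycd and Me1, with colours for the groups and black rims for the rats with low 5′ beta-actin. CS-6 lies at the lower left for Fasn and Acly, TS-2 and TF-7 lie at the lower left for Acly and Thrsp, and CF-1 and TF-4 lie at the 2 ends for Mlycd and Me1.

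Set against all 14215 other genes with complete values, Acly ranked 11 and Acaca 13 by r with Fasn, Thrsp ranked 153 and Acss2 398. Me1 and Mlycd ranked 10681 and 13407. The 5 genes most like Fasn were Stard5 (r = 0.80), Prickle3 (0.80), Vegfa (0.79), Pirt (0.77) and Hspg2 (0.74), and none of these passed for the protein, with differences from -0.04 to 0.02 in z. Most like Mlycd were Tmem120a (r = 0.87), Zwint (0.85), Ppp1ca (0.85), Cpped1 (0.84) and Slc13a1 (0.83), also with no call for protein or oil. Pirt and Slc13a1 had a mean z of -0.50 and -0.36, below every array median, so their signal was low. The 2 genes of a pair were read from the same arrays, and these correlations are descriptions over 20 rats.

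The other genes around the route came from lists chosen with earlier results of these data known. Over all probe sets tested, 0.258% fell on tofu and 0.3% rose, and 0.193% were called for the oil in either direction. Shares at an unadjusted p under 0.05 are not given here. Among regulators of lipogenesis, 1 of 16 fell on tofu and 0 rose, with a median difference of -0.03 in z. That gene was Insig1, which holds the SREBP precursor in the endoplasmic reticulum and is itself an SREBP target, at -0.44 (adjusted p = 0.0127 in limma). Srebf1, which encodes the lipogenic SREBP, differed by -0.18 (95% interval -0.32 to -0.04, adjusted p = 0.340) and Mlxipl, the carbohydrate response factor, by -0.06 (adjusted p = 0.510). Mid1ip1, a relative of Thrsp that activates acetyl-CoA carboxylase, differed by -0.20 with a 95% interval from -0.43 to 0.03. In the 8 genes of AMPK subunits and control of the carboxylase, 0 passed in limma for the protein or the oil, and 1 and 0 had an unadjusted p under 0.05.

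Over all probe sets tested, 0.258% fell on tofu and 0.3% rose. Of 11 genes that act after palmitate, 4 fell on tofu and 0 rose, with a median of -0.12 in z. They were the desaturases Scd (-0.70), Fads2 (-0.39) and Fads1 (-0.23) and the elongase Elovl6 (-0.42). The other 7 lay between -0.26 and 0.02 and did not pass. In NADPH supply beside Me1, 1 of the 6 genes measured fell, Pgd of the pentose phosphate pathway, at -0.22 (adjusted p = 0.0138 in limma), while the other 5 lay between -0.08 and 0.04. From glucose to pyruvate and citrate, 0 of 13 passed in limma for either factor (1 for the protein and 2 for the oil at an unadjusted p under 0.05), with Pklr, pyruvate kinase of liver, at -0.11 for the protein (adjusted p = 0.563) and -0.23 for the oil (adjusted p = 0.330).

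On the side that malonyl-CoA holds back, 2 of 4 genes of fatty acid entry into mitochondria rose on fish oil and 0 fell, with a median of 0.14 in z against -0.001 over all probe sets. The share of all probe sets called for the oil in either direction was 0.193%. Cpt2, the inner membrane carnitine palmitoyltransferase, rose by 0.26 (adjusted p = 0.00877 in limma) and the carnitine carrier Slc25a20 by 0.21 (adjusted p = 0.00608). Cpt1a, the enzyme that malonyl-CoA inhibits, differed by 0.07 for the oil (95% interval -0.03 to 0.18) and by -0.13 for the protein (adjusted p = 0.379). For the protein 0 of the 4 passed in limma and 2 had an unadjusted p under 0.05. Acsf3, which makes malonyl-CoA inside mitochondria, differed by 0.06 for the protein and 0.04 for the oil, and 0 of the 7 genes of mitochondrial fatty acid synthesis passed in limma for either (1 for the protein at an unadjusted p under 0.05). A further list of acetyl-CoA and acetoacetyl-CoA enzymes, with Acss1 of the mitochondrial matrix and Aacs and Acat2 of the cytosol, had 0 calls in limma among 3 genes, with 1 at an unadjusted p under 0.05 for the oil.

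**Figure D5:**
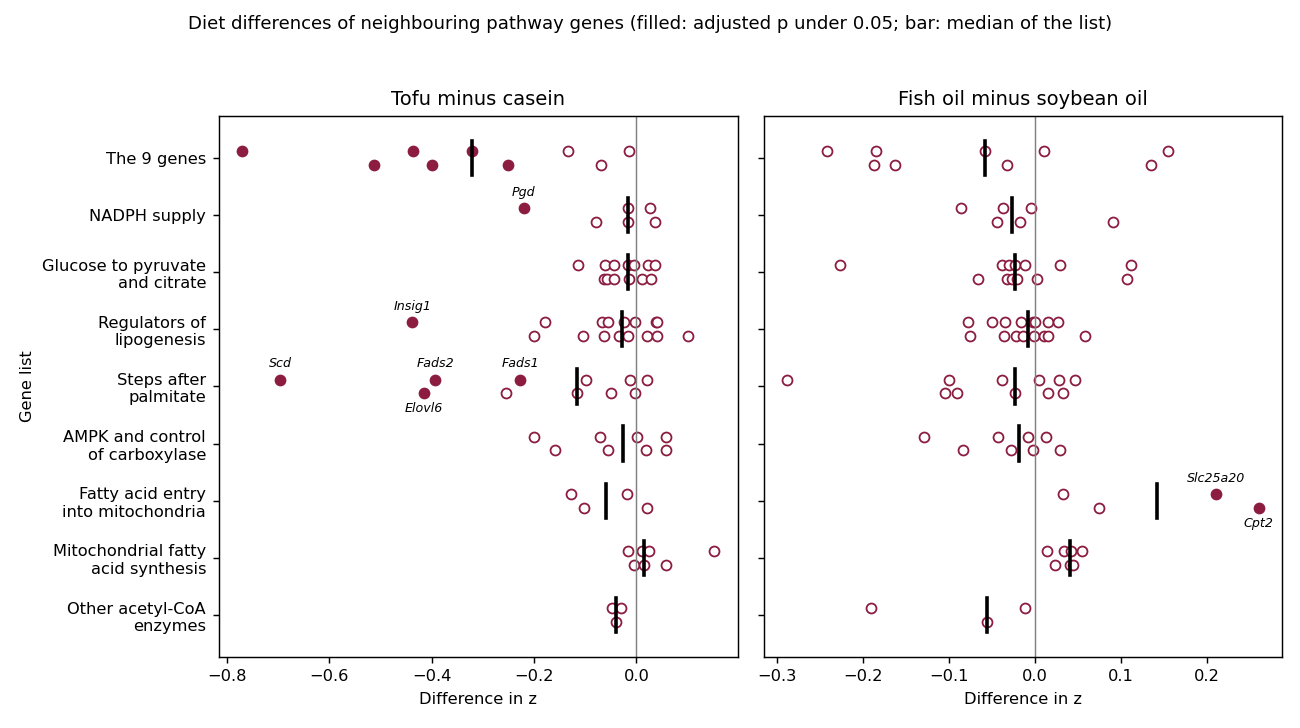
Each point is the difference in z of 1 gene between tofu and casein (left) or fish oil and soybean oil (right), by list, filled where the adjusted p was under 0.05, with a bar at the list median. The medians of the 9 genes are -0.32 and -0.06, the largest named fall in the other lists is that of Scd at -0.70, and the filled points on the right are Slc25a20 and Cpt2.

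In bulk tissue, fewer cells of a type and less RNA per cell cannot be told apart. Hepatocyte markers averaged 3.10 to 3.39 in z over all rats, and 0 of the 7 measured passed for the protein, with a median difference of 0.07 and 3 at an unadjusted p under 0.05. The stellate cell markers averaged 0.76 to 0.84 in TS and 0.68 to 0.76 in TF, against 0.63 to 0.74 in the casein groups, and 1 of 7, Rgs5, rose on tofu by 0.28 (adjusted p = 0.0151 in limma) from a level near the array medians. Over all probe sets, 0.3% were called higher on tofu. Endothelial markers lay at 0.95 to 1.09 on tofu against 0.87 to 0.97 on casein with 0 of 6 called and 2 at an unadjusted p under 0.05, Kupffer cell markers at 0.81 to 1.13 against 0.80 to 1.03 with 0 of 5 called, bile duct markers at -0.10 to 0.24 against -0.03 to 0.18 with 0 of 4 called, and adipocyte markers at 0.05 to 0.29 against 0.09 to 0.24 with 0 of 6 called. Adipoq, Plin1, Lep and Fabp4, defining markers of fat cells, had group means from -0.45 to -0.13 in z, while the other 2 of that list, Cfd and Cidec, had group means from 0.74 to 0.90 and from 1.40 to 1.43. The part of these cell types in the results above was not tested.

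Array medians ran from -0.10 to 0.02 in z, and 5′ beta-actin from 1.30 to 1.42 in the 4 low rats and 1.86 to 2.13 in the others. Of 27 correlations inside groups between the 9 genes and 3 array measures (the median, the correlation with other arrays, and 3′ minus 5′ beta-actin), 0 had an adjusted permutation p under 0.05. The nearest by rho was Acss2 with the correlation with other arrays, at r = 0.47 (permutation p = 0.0794, adjusted p = 0.536) and rho = 0.63 (permutation p = 0.0051, adjusted p = 0.138). Next were Acacb with the array median at r = 0.66 (permutation p = 0.0564, adjusted p = 0.536) and rho = 0.62 (permutation p = 0.0238, adjusted p = 0.321), and, nearest by r, Me1 with 3′ minus 5′ beta-actin at r = -0.53 (permutation p = 0.0386, adjusted p = 0.536) and rho = -0.38 (permutation p = 0.126, adjusted p = 0.507). Without the 2 farthest rats in the array measure, r became 0.36, 0.41 and -0.44.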

How the data were processed

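Liver RNA of 20 rats, 5 per diet, was hybridised to 1 array each. The authors normalised the signals with the SuperNORM service, and the deposited values are z scores, logarithmic and standardised within each array. A difference of 1 in z is a 5.57-fold difference by the conversion in the methods, and all folds here use it. Software version and background treatment are not given in the sources used here. Control probe sets, 57 of the 31099, were dropped, and the 31039 with at least 3 values per group were tested, with 63 missing values in the table and 0 among the 14 probe sets described. Array number limits the precision, and the median SE of a main effect was 0.05 in z.

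The 9 genes and the gene lists were chosen with earlier results of these data known. Named are the 9 genes, list genes called for protein or oil, Srebf1, Mlxipl, Pklr, Cpt1a, Acsf3 and Mid1ip1 whatever their result, and the 5 genes most like Fasn and Mlycd. Some genes of this rule are not reported here. One model of the 4 group means, with no covariates, was run over the whole table (R 4.3.3, limma 3.58.1), and p-values were Benjamini-Hochberg adjusted over all probe sets for each comparison. Tests are two-sided. Protein and oil effects average over the other factor. Correlations used deviations from group means and 100000 permutations inside groups (Python 3.11.15, numpy 2.4.6). Simulated protein effects of 0.2, 0.4 and 0.8 in z, in a small part of 31039 probe sets, were recovered in 38.8%, 82.1% and 98.5%. False calls numbered 7. The simulated noise was normal and independent between probe sets, without effects shared by an array or outlying rats. These rates therefore need not hold for the real arrays. Alternatives were quantile normalisation, bright probe sets, other variance models, the mean of a gene's probe sets, left-out arrays and the rat number as a block. Nothing in the labels ties equal rat numbers of different groups to each other.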

Additional observations from a re-analysis of the deposited data

Results flagged for a closer look

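In 3 of the 36 combinations of gene and group, 1 rat lay far from the other 4 by Dixon's test, which chance does in about 1 of 20 such groups. Fasn in rat CS-6 was 2.01 in z, against 2.53 to 2.59 in the other CS rats. Me1 in rat CF-1 was 1.32, against 1.69 to 1.84 in the other CF rats, and CF-1 is among the 4 rats low in 5′ beta-actin. Me1 in rat TF-4 was 1.55, against 1.01 to 1.05 in the other TF rats, and TF-4 is among the 3 arrays with the lowest correlation to the rest. Causes of these values were not tested.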

How the results depend on the processing

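Rats with the same number in different groups deviated together only weakly. Over 22 such pairs the correlation of deviations ran from -0.10 to 0.13 with a median of 0.04, and 1 pair was over 0.1. Over 128 pairs with different numbers the median was -0.01, and 8 were over 0.1. Of 19 rats whose number recurs in another group, 6 were closest, among rats of other groups, to a rat of their own number. How many would be so by chance was not counted. CS-1, CF-1 and TS-1, which share a number, are all among the 4 rats low in 5′ beta-actin. The other of these rats, TF-3, has the lowest number in TF, so the lowest number of every group is low in 5′ beta-actin. The main model takes the number as a name, and whether it marks a shared step of handling was not tested. With the number as a replicate block, in which TF-3 has no partner, 3 of 9 genes were called for the protein (Fasn, Acly, Me1), 5 pairwise differences were called in place of 8, and 6 of 36 correlations in place of 3. Without the 4 low beta-actin rats these counts were 3, 4 and 0. Quantile normalisation gave 0 correlations under 0.05, as did leaving out the 2 farthest rats, and the 3 named pairs then had r of 0.54 to 0.72. Of settings chosen after seeing the data, a fit with unmoderated variances and the removal of the 3 least correlated arrays each gave 5 pairwise calls, a variance trend 9 and the mean of a gene's probe sets 12. Quantile normalisation and the bright probe sets each gave 10. Quantile normalisation, the variance trend and the mean of probe sets each called 7 genes for the protein, adding Slc25a1. With 1 rat left out, protein calls ran from 4 to 5, pairwise calls from 5 to 8 (5 without TF-3 or without TF-5), and correlations from 1 (without CS-6) to 4. The cause of these shifts was not tested. Oil and interaction calls among the 9 genes were 0 in every setting run. The filter on bright probe sets removed Acacb and gave no value for it. Over all probe sets, 173 protein calls became 347 with bright probe sets, 289 with a variance trend, 91 with the block, 72 without the low beta-actin rats and 74 without the least correlated arrays, and 60 oil calls became 27 with the block and 34 without those arrays. No difference of the 9 genes that passed the test changed sign. In the simulation of the protein effect, with 10 rats against 10 and independent noise, effects of 0.2 in z were recovered in 38.8% and those of 0.4 in 82.1%. Comparisons of 5 rats against 5 were not simulated. In the data a difference of -0.53 in z, that of Fasn between TS and CF, did not pass there (adjusted p = 0.191 in limma).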
